A study of Mus musculus with 4 samples.

Results

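The forebrain patterning transcription factors described here are 9 mouse genes: Pax6, Emx2, Lhx2, Otx2, Dlx1, Dlx2, Gli3, Zic1 and Meis2. They were found on an Affymetrix MG_U74Av2 array, which measures each transcript with a set of short probes called a probe set, as the probe sets whose annotation names one of these genes and no other. This gave 6 probe sets, 1 each for 6 of the 9 genes, among 12422 probe sets left once control probe sets were set aside. The annotation used pairs no probe set with Emx2, Lhx2 or Otx2, and no value is given for them.

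The embryonic telencephalon, the front end of the neural tube, is divided by transcription factors that each mark a territory. Pax6, Emx2 and Lhx2 are active in progenitors of the future cortex, Gli3 is needed for dorsal identity, Dlx1 and Dlx2 mark ventral progenitors that give rise to inhibitory neurons, and Otx2 is needed earlier for forebrain and midbrain as a whole. Zic1 is a zinc finger factor of the neural plate border and dorsal neural tube, and Meis2 is a homeodomain factor of the developing striatum and other parts of the forebrain.

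The tested cells were neurospheres, free-floating clusters of neural progenitors, from mouse E13.5 telencephalon, grown in DMEM/F12 with FGF2, which gave 1 array. Their label lists astrocytes, glia and oligodendrocytes as contaminating cells. They were set against R1 embryonic stem (ES) cells, a line from the inner cell mass, kept in DMEM with LIF and beta-mercaptoethanol throughout. Embryoid bodies, R1 cells left unattached over 48 hours, gave 2 arrays, titled aggregation and suspension, and R1 cells grown attached on gelatin under standard conditions gave 1 array. The embryoid body arrays share one sample identifier and were counted as replicates, n = 2, although no source calls them separate cultures and their titles differ. P-values from fits with 3 groups measure the spread of this pair, technical or not. In other fits, R1 arrays were pooled as a single group or the scale of the deposited values was a block. There adherent cells entered the spread unless left out, so culture form is part of it. In RNA from whole cultures, fewer cells of a type and less RNA per cell cannot be told apart.

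The deposited values of the arrays were on unlike scales: their trimmed means were 29.46 in neurospheres, 32.54 in aggregation embryoid bodies, 1484.7 in suspension embryoid bodies and 1490.04 in adherent R1 cells. Each array was therefore scaled to a trimmed mean of 500, and all signals below are on that scale. The array median was then 241.9 in neurospheres, 224.7 and 236.0 in embryoid bodies and 178.1 in adherent cells, so low signals were lower on the adherent array than on the others. The cell labels were set against marker genes. Of 8 neural progenitor markers tested, 3 were higher in neurospheres and 0 lower, and their summed signal was 55054.4 in neurospheres, against 10319.5 to 11469.5 in R1 cells. Fabp7, a fatty acid binding protein of radial glia, supplied most of that sum, with 41867.0 units in neurospheres; without it the other 7 summed to 13187.4 in neurospheres, against 10304.0 to 11402.2 in R1 cells. Of the 3 called markers, Fabp7 and Hes5 reached the array median in neurospheres alone, so their calls are a weak check, and Nes had 3944.9 units in neurospheres against 52.5 to 424.3 in R1 cells. Sox2, which ES cells express too, had 6643.9 units in neurospheres against 8859.5 to 9981.0 in R1 cells. Probe sets of Notch1, named after its values were seen, disagreed, and the choice between them decides the count. The one counted, of higher mean, differed by 1.26 on the log2 scale and was not called. The other had 1851.7 units in neurospheres against 63.3 to 95.1 in R1 cells and was called (4.02), but reached the median in neurospheres alone. All 8 tested pluripotency markers were lower in neurospheres, with a summed signal of 1260.8 in neurospheres against 58072.1 to 67236.4 in R1 cells.

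Neurosphere RNA gave little signal for most of these factors. Of the 6 probe sets, 5 were below the array median in neurospheres, namely Meis2, Pax6, Dlx1, Dlx2 and Gli3, and the same 5 were below the median on all 4 arrays. Over all probe sets the share below the median in neurospheres is 50% by construction, and 35.3% were below it on all 4 arrays. Zic1 stood above the median in neurospheres, at 318.7% of it. Meis2 was the nearest below, at 78.0% of it, and the other 4 were between 10.1% and 43.5% of it. At the 25th percentile of the neurosphere array, 74.7 units, 3 probe sets were below: Dlx1, Dlx2 and Gli3. The brightness of a probe set depends on its probes as well as on its transcript, so no order of abundance among the genes is drawn from these values. A signal below the median was not separated from background, since no detection calls were used.

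**Figure D1:**
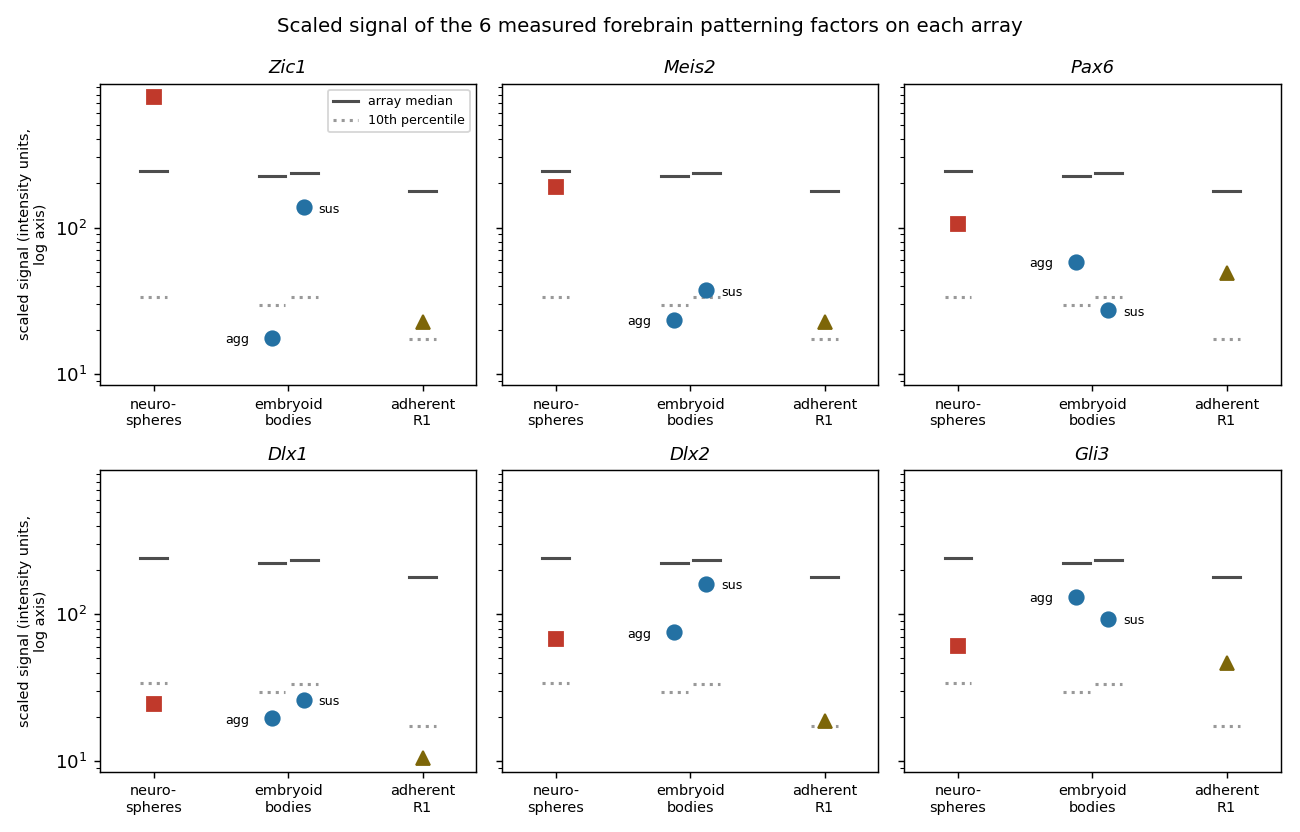
Scaled signal (intensity units, log axis) of the 6 measured factors in neurospheres, in aggregation (agg) and suspension (sus) embryoid bodies and in adherent R1 cells, 1 point per array. Solid bars mark each array's median and dotted bars its 10th percentile. The Zic1 point of neurospheres, at 770.9, is above its array's median, and the other 5 factors are below the median bar on each array.

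Zic1 had a signal of 770.9 in neurospheres, against 17.7 and 137.6 in aggregation and suspension embryoid bodies and 22.8 in adherent cells. The neurosphere array was thus the high one, at 5.6 times the highest R1 array, while the embryoid body arrays differed widely from each other. Among all probe sets of its own array, Zic1 stood at percentile 79.6 in neurospheres, against percentiles 4.2 and 38.1 in embryoid bodies and 14.3 in adherent cells. The log2(signal + 32) scale was used for the log2 differences here because it damps noise at low signal. It therefore understates changes of dim genes. The exceptions are alternative fits with 1 or 100 added in place of 32. Ratios given as times the highest R1 array are of signal without the added 32. On the log2 scale the neurosphere value was 4.01 above aggregation, 2.24 above suspension and 3.87 above adherent cells. The suspension array was 1.77 above the aggregation array on the same scale. The embryoid body mean was 77.6 ± 84.8 units (SD, n = 2), so the SD exceeded the mean.

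The test was a limma model over the 8031 probe sets that reached the array median on at least 1 array, with p-values adjusted by Benjamini-Hochberg over all 8031 and a threshold of 0.05. The neurosphere array was set against R1 cells, taken as the average of the embryoid body group and the adherent array with equal weight. Zic1 was higher in neurospheres by 3.50 ± 0.97 (SE) on the log2 scale, with a limma adjusted p of 0.0131. It was the 1 factor among the 6 that could be tested in this fit. It reached the median through neurospheres alone, so that it passed the filter on the very array where it was high, and its count of 1 of 1 is no support for the set. In the same fit 8.09% of all tested probe sets were higher in neurospheres and 11.6% lower, and the median difference of all tested probe sets was 0.10. The fit holds 1 residual degree of freedom, with 20.46 more borrowed from the other probe sets, and assumes that the single neurosphere and adherent arrays vary as the embryoid body arrays do.

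The Zic1 difference had the same direction under each of 24 alternative settings tried, between 2.60 (100 added) and 4.47 (1 added). It passed the limma threshold under 18 of them. The 24 mix unfiltered fits with filtered ones, which Zic1 entered through neurospheres alone. Without the filter Zic1 passed (3.50 ± 0.84 SE, limma adjusted p = 0.0307). Among unfiltered fits it missed the threshold with 1 added, with quantile normalization, without adherent cells and with no intensity trend (adjusted p = 0.118). With the filter it missed the threshold when the variance was not made to follow intensity (adjusted p = 0.0711). It also missed it, narrowly, when the 2 scales of the deposited values were fitted as a block (4.01, adjusted p = 0.0505); that comparison reduces to neurospheres against aggregation embryoid bodies, the other array on the low scale. Leaving out the adherent array in a fit of every probe set gave 3.13 with an adjusted p of 0.0637.

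Meis2 had a signal of 188.6 in neurospheres, against 23.6 and 37.4 in aggregation and suspension embryoid bodies and 22.9 in adherent cells. The neurosphere array was again above every R1 array, by 5.04 times the highest of them in signal, and the 3 R1 values lay close together. In its own array Meis2 stood at percentile 43.6 in neurospheres, against percentiles 7.1 and 11.8 in embryoid bodies and 14.4 in adherent cells. The embryoid body mean was 30.5 ± 9.77 units (SD, n = 2). Neurospheres were 1.99 above aggregation, 1.67 above suspension and 2.01 above adherent cells on the log2 scale. Because Meis2 stayed below the median on each array, it was tested in a fit of all 12422 probe sets with no filter, an alternative to the filtered fit. There it was higher in neurospheres by 1.92 ± 0.50 (SE), with a limma adjusted p of 0.0414. The same unfiltered fit called 4.56% of all probe sets higher and 5.38% lower.

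The Meis2 call was not stable. Of 11 unfiltered fits it passed the limma threshold in 4 and missed it in 7. The difference had the same direction in each, between 1.19 (100 added) and 2.81 (1 added) in log2. With the 3 R1 arrays pooled as one group it was 1.89 with an adjusted p of 0.0368. In that 2-group fit, leaving out aggregation embryoid bodies gave 1.84 with an adjusted p of 0.259, leaving out suspension embryoid bodies gave 2.0 with 0.0902, and leaving out adherent cells gave 1.83 with 0.086. With the deposited scale as a block it was 1.99 with an adjusted p of 0.284.

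Zic1 and Meis2 are the 2 factors whose neurosphere value was at least 2-fold above every R1 array on the log2(signal + 32) scale, a distance reached by 7.83% of all probe sets, and none was as far below every R1 array, against 6.3% of all. Their promoter sequences are shown because these are the 2 factors that stood apart between neurospheres and R1 cells. The sequences are from the RefSeq promoter table on GRCm38.p6, in which each of the 9 genes was matched by symbol. They run from 250 bases before to 50 bases after the gene start, and are written 5′ to 3′ on the strand of the gene. For Zic1 this is chr9:91365719-91366018 on the minus strand, and for Meis2 chr2:116064570-116064869 on the minus strand. Capitals mark the GC box (GGGCGG, or CCGCCC on the other strand), the letters of binding sites for Sp factors, and the homeodomain core (TAAT, or ATTA on the other strand).
Zic1: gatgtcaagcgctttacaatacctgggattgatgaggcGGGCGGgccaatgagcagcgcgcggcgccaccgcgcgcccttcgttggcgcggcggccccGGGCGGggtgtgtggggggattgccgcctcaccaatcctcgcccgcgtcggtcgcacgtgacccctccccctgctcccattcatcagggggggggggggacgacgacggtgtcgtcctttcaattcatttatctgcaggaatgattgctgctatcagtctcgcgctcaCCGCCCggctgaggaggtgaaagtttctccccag
Meis2: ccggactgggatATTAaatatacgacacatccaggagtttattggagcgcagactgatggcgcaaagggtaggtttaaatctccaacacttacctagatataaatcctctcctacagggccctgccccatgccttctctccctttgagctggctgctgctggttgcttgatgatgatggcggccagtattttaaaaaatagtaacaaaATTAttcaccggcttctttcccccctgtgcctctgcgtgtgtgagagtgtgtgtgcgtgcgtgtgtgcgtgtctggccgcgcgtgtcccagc

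The 2 promoters differ in composition. The Zic1 window is 65.3% G or C and holds 3 GC boxes and 0 homeodomain cores, whereas the Meis2 window is 51.0% G or C and holds 0 GC boxes and 2 homeodomain cores. The median over 32851 mouse promoters of the same length is 52.7% G or C, and 35.7% of them hold a GC box and 58.0% a homeodomain core. The CCAAT box (CCAAT, or ATTGG on the other strand) was found 2 times in the Zic1 window and 1 time in the Meis2 window, and is present in 37.4% of all promoters. The letters TATAAA (or TTTATA) were found 0 times for Zic1 and 1 time for Meis2, and are in 13.6% of all promoters. The Meis hexamer TGACAG (or CTGTCA) was found in neither window and is in 19.2% of all promoters. These searches covered both strands, 0 matches overlapped another in either window, and a match is a description of the sequence and not a binding site.

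Pax6, a paired-box homeodomain factor of cortical progenitors and of the eye, had a signal of 105.2 in neurospheres, against 58.6 and 27.3 in aggregation and suspension embryoid bodies and 49.1 in adherent cells. Neurospheres were the high array, at 1.8 times the highest R1 array, and the 2 embryoid body arrays lay on either side of the adherent one. The differences on the log2 scale were 0.60 against aggregation, 1.21 against suspension and 0.76 against adherent cells. In the unfiltered limma fit the difference was 0.83 ± 0.55 (SE), with an adjusted p of 0.407, and did not pass. By rank in its own array neurospheres were still highest, but adherent cells came above aggregation embryoid bodies: Pax6 stood at percentile 31.7 in neurospheres, against percentiles 22.1 and 6.9 in embryoid bodies and 26.6 in adherent cells.

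Dlx1 and Dlx2 are neighbouring homeobox genes with 0 protein-coding genes between them in the RefSeq annotation, and act together in ventral progenitors. Dlx1 had a signal of 24.4 in neurospheres, against 19.6 and 26.1 in aggregation and suspension embryoid bodies and 10.5 in adherent cells. These values were at the floor of each array, between percentiles 4.6 and 6.3 of all its probe sets, and the neurosphere value lay between the 2 embryoid body values. The unfiltered limma difference was 0.23 ± 0.28 (SE), with an adjusted p of 0.686.

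Dlx2 had a signal of 68.3 in neurospheres, against 75.2 and 161.6 in aggregation and suspension embryoid bodies and 18.9 in adherent cells. Neurospheres lay between the R1 arrays, below both embryoid body arrays and above the adherent one. On the log2 scale neurospheres were -0.10 relative to aggregation, -0.95 relative to suspension and 0.98 relative to adherent cells, and the unfiltered limma difference of 0.23 ± 0.63 (SE) had an adjusted p of 0.870. The other members of the family with a probe set, Dlx3, Dlx4, Dlx5 and Dlx6, were below the median on each array too. Dlx5, for example, had 72.0 units in neurospheres, 177.9 and 45.0 in aggregation and suspension embryoid bodies and 9.8 in adherent cells (these 4 relatives were chosen after their values were seen).

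Gli3, the zinc finger factor that in its cleaved form represses hedgehog targets, had a signal of 60.8 in neurospheres, against 132.2 and 93.0 in aggregation and suspension embryoid bodies and 46.4 in adherent cells. Both embryoid body arrays were above neurospheres and the adherent array was below. By rank neurospheres were lowest of the 4, at percentile 20.8, against percentiles 38.6 and 30.4 in embryoid bodies and 25.6 in adherent cells, so the order of neurospheres and adherent cells turned with the scale used. The unfiltered limma difference was -0.19 ± 0.63 (SE), with an adjusted p of 0.893.

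Counted over the 6 factors, the neurosphere signal was above every R1 array for 3 (Zic1, Meis2 and Pax6), between the R1 arrays for 3 (Dlx1, Dlx2 and Gli3) and below every R1 array for 0. Over all 12422 probe sets these positions were held by 34.9% above and 25.3% below every R1 array. In the unfiltered fit the median difference of the 6 was 0.53 on the log2 scale, against 0.16 over all probe sets, with 5 above 0 and 1 below. Of the 6, Zic1 and Meis2 had an adjusted p under the threshold in that fit, which called 4.56% of all probe sets higher and 5.38% lower, and Meis2 missed it in 7 of the 11 unfiltered fits.

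**Figure D2:**
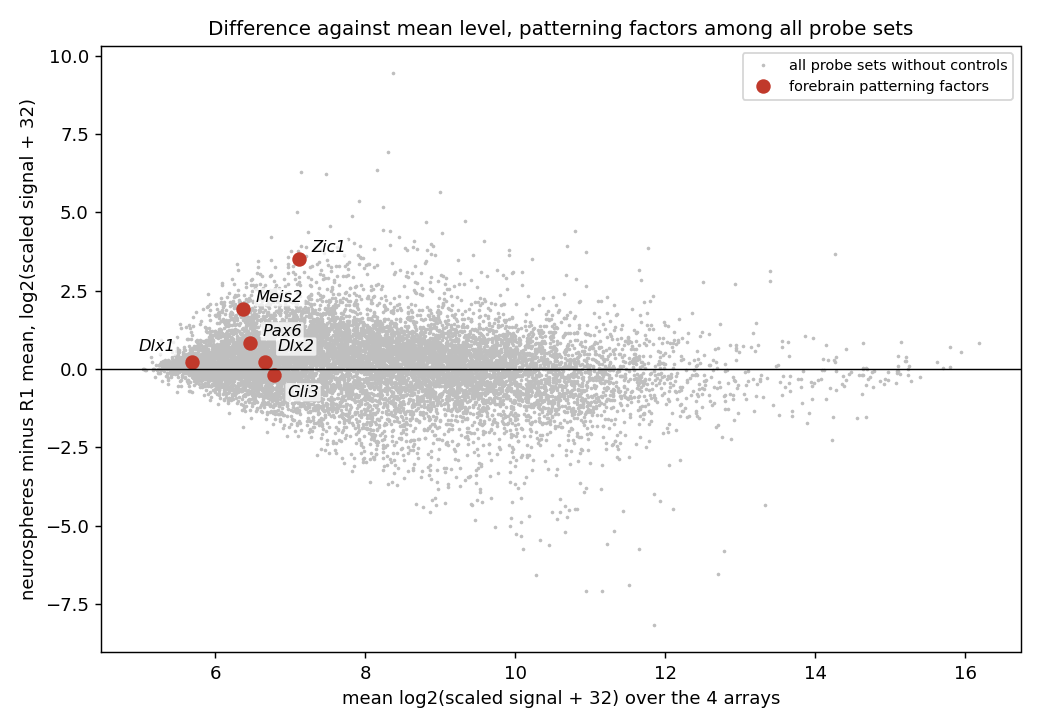
Difference between neurospheres and the mean of the R1 groups against the mean level over the 4 arrays, both on the log2(scaled signal + 32) scale, 1 point per probe set. Zic1 (3.50) and Meis2 (1.92) lie toward the top of the cloud at the low end of the level axis, and Pax6, Dlx1, Dlx2 and Gli3 lie between -0.19 and 0.83.

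None of the factors differed between embryoid bodies and adherent cells, the 2 culture forms of R1, at the limma threshold. In that comparison 0.261% of the 8031 tested probe sets were higher in embryoid bodies and 0.0872% lower, and the unfiltered fit called 0 of 12422, with 1272 at an unadjusted p under 0.05. Zic1, the factor tested in the filtered fit, differed by 0.74 ± 1.02 (SE) with an adjusted p of 0.782. The embryoid body arrays disagreed on its direction: suspension was 1.63 above adherent cells and aggregation was -0.14 relative to them. In the unfiltered fit Dlx2 was 1.50 ± 0.66 (SE) higher in embryoid bodies, with an unadjusted p of 0.0479 and an adjusted p of 0.485, so it did not pass. The other differences were 0.87 for Gli3, 0.37 for Dlx1, 0.18 for Meis2 and -0.15 for Pax6, with adjusted p-values between 0.605 and 0.920 in limma. The adherent signal was the lowest of the 4 arrays for 4 of the 6 factors (Meis2, Dlx1, Dlx2 and Gli3), and for 42.5% of all probe sets.

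The genes whose pattern over the 4 arrays was most like that of Zic1 were found among 7189 tested probe sets that name a single gene. The measure was the distance between log2 values centred on their mean. Papss1, an enzyme that makes the sulphate donor PAPS, was the nearest at a distance of 0.42, with 2568.1 units in neurospheres, 76.8 and 418.2 in aggregation and suspension embryoid bodies and 127.7 in adherent cells. Rhoq, a small GTPase, was next at 0.43, with 1320.9 units in neurospheres, 43.9 and 206.9 in embryoid bodies and 29.8 in adherent cells. Both share with Zic1 a high neurosphere value and a suspension array above the aggregation array. The measure rests on 4 arrays and describes these libraries alone.

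Genes of the pathways these factors work in, the factors themselves included, were read as lists. Each gene had 1 probe set, the one whose log2(signal + 32) had the highest mean over the 4 arrays. The list of Zic and Gli relatives and the hedgehog pathway had 17 genes, of which 10 had a probe set and 8 were tested: 3 were higher in neurospheres, 2 lower and 3 did not pass, with a median of 0.74 against 0.10 over all tested probe sets. Zic1 is one of the 3. Like Zic1, the other two, Gas1 and Smo, reached the array median in neurospheres alone. Gas1, a hedgehog co-receptor, had 2828.2 units in neurospheres, against 71.0 and 234.0 in aggregation and suspension embryoid bodies and 75.3 in adherent cells, a limma difference of 4.42 ± 0.64 (SE) with an adjusted p of 2.38e-05. Smo, the transducer of the pathway, had 668.0 units in neurospheres, against 49.8 and 47.8 in embryoid bodies and 135.2 in adherent cells (2.59 ± 0.83, adjusted p = 0.0298). For both genes the neurosphere array was far above every R1 array. Lost calls are counted from here on out of all 25 alternatives run, including any that did not test the probe set. Smo, for example, was not tested where the median was required on 2 arrays. The Smo call was lost under 10 of 25 alternatives, among them against the adherent array alone (2.07, limma adjusted p = 0.164), with the deposited scale as a block (3.10, adjusted p = 0.127) and, with R1 arrays pooled, without aggregation embryoid bodies (2.6, adjusted p = 0.0592).

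The 2 lower genes of that list are known targets of hedgehog signalling. Gli1 had 129.0 units in neurospheres, against 580.4 and 826.3 in aggregation and suspension embryoid bodies and 973.3 in adherent cells, a limma difference of -2.41 ± 0.45 (SE) with an adjusted p of 0.000442. Ptch1, the hedgehog receptor, which was the fifth by size and is named after its values were seen, had 372.5 units in neurospheres, against 1170.7 and 1238.1 in embryoid bodies and 2469.0 in adherent cells (-2.12 ± 0.33, adjusted p = 7.14e-05). Neurospheres were the low array for both. A second, dimmer Ptch1 probe set did not show this, with 446.9 units in neurospheres, 620.9 and 745.1 in embryoid bodies and 358.7 in adherent cells. With the deposited scale as a block, Gli1 (-1.93, limma adjusted p = 0.101) and Ptch1 (-1.57, adjusted p = 0.117) missed the threshold.

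The dorsal telencephalon list had 12 of 20 genes with a probe set and 8 tested, of which 1 was higher in neurospheres, 0 lower and 7 did not pass (median 1.14). The called gene was Nr2f1, a nuclear receptor that patterns the cortex along its length, with 890.1 units in neurospheres, against 34.0 and 19.6 in aggregation and suspension embryoid bodies and 10.6 in adherent cells (4.21 ± 1.08, limma adjusted p = 0.00731). It too reached its array's median in neurospheres alone, and its call was lost with the deposited scale as a block (3.80, adjusted p = 0.149). Of the ventral telencephalon list, 15 of 20 genes had a probe set, 2 reached the filter and 0 were called. These were Gad1, which makes the transmitter GABA, at 377.0 units in neurospheres against 20.4, 96.6 and 36.8 on the R1 arrays in the order aggregation, suspension and adherent (2.44, limma adjusted p = 0.109), and Gsx1, a homeobox factor of ventral progenitors (0.54, adjusted p = 0.632).

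Of the anterior neural plate list, 12 of 15 genes had a probe set and 5 were tested, with 1 higher, 0 lower and 4 that did not pass (median 1.37). Sox3, a factor of early neural progenitors, had 2084.8 units in neurospheres, against 581.6 and 589.9 in embryoid bodies and 359.9 in adherent cells (2.11 ± 0.38, limma adjusted p = 0.00035). This probe set missed the threshold when the variance was not made to follow intensity (adjusted p = 0.0526) and with the deposited scale as a block (1.79, adjusted p = 0.0913). Other Sox3 probe sets gave 3.57 and 3.35 and kept their calls in the filtered fit with no intensity trend. Those probe sets reached the array median in neurospheres alone. The remaining one was not tested, with 45.9 units in neurospheres, within the 16.1 to 164.5 of R1 cells. Of the midbrain and hindbrain list, 14 of 20 genes had a probe set, 9 were tested and 0 were called in either direction (median 0.75). Wnt1, a signal of the midbrain-hindbrain boundary, had 545.6 units in neurospheres, 505.1 and 673.4 in embryoid bodies and 115.9 in adherent cells (0.94, adjusted p = 0.203), and Hoxa2, a hindbrain homeobox gene, differed by -0.46 (adjusted p = 0.61).

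**Figure D3:**
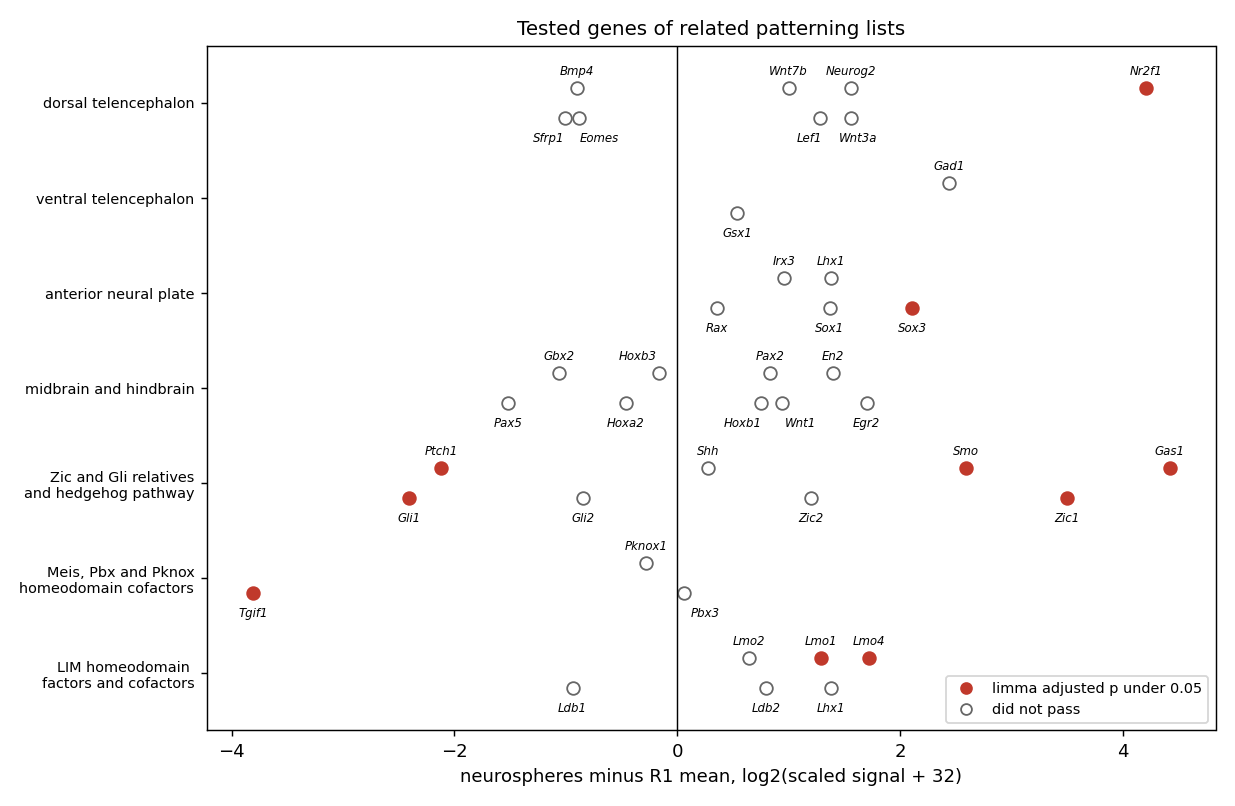
Difference between neurospheres and the mean of the R1 groups, on the log2(scaled signal + 32) scale, for each tested gene of 7 related lists (rows), 1 point per gene. Filled points have a limma adjusted p under 0.05 and open points do not; Gas1 (4.42), Nr2f1 (4.21) and Zic1 (3.50) lie farthest right and Tgif1 (-3.81) farthest left.

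In the list of Meis, Pbx and Pknox homeodomain cofactors, which counts Meis2 itself, 7 of 10 genes had a probe set. Of these, 3 were tested, with 0 higher, 1 lower and 2 that did not pass (median -0.28). Tgif1, a homeodomain corepressor, had 239.2 units in neurospheres, against 3730.9 and 3899.6 in aggregation and suspension embryoid bodies and 3712.8 in adherent cells (-3.81 ± 0.29, limma adjusted p = 2.18e-09). The 3 R1 arrays were close together and neurospheres far below them. The relatives Meis1 and Meis3 were below the median on each array, Meis1 at 52.2 units in neurospheres against 9.9 to 29.8 on the R1 arrays and Meis3 at 83.5 units in neurospheres against 21.9 to 81.1 (both named after their values were seen). Probe sets of Pbx3, a DNA-binding partner of Meis proteins, disagreed, and the choice among them decides the count: the one of highest mean log2 value differed by 0.06 (limma adjusted p = 0.951), whereas another had 659.1 units in neurospheres against 136.4 to 191.2 on the R1 arrays and differed by 1.93, a call that was lost under 20 of 25 alternatives. Pbx3 is named after its values were seen.

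Of the LIM homeodomain factors and cofactors, the family of Lhx2, 13 of 19 genes had a probe set and 6 were tested, with 2 higher, 0 lower and 4 that did not pass (median 1.04). Lmo4, a LIM-only cofactor, had 1102.7 units in neurospheres, against 242.7 and 352.0 in embryoid bodies and 334.9 in adherent cells (1.72 ± 0.48, limma adjusted p = 0.0141). Lmo1, another LIM-only cofactor, had 1031.9 units in neurospheres, against 455.6 and 691.3 in embryoid bodies and 287.0 in adherent cells (1.29, adjusted p = 0.0399). Neurospheres were the high array for both, but the Lmo4 call was lost under 12 of 25 alternatives, including, with R1 arrays pooled, without aggregation embryoid bodies (1.6, limma adjusted p = 0.101), and the Lmo1 call under 20 of 25. Between embryoid bodies and adherent cells 0 genes of these 7 lists were called.

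Markers of the other cells the cultures could hold were read in the same way, and some lists differed between the groups while others did not. The summed signal of 10 neuron markers was 9943.3 in neurospheres, against 5349.0 to 7299.3 in R1 cells, with 2 of 6 tested higher (Ncam1 and Gap43) and 1 lower (Stmn2, -1.92). Gap43 reached the array median in neurospheres alone, and its call was lost under 15 of 25 alternatives. Probe sets of Stmn2 disagreed, with another called lower (-3.26) and another not called (1.36). Tubb3, named after its values were seen, supplied 5990.8 units of the sum in neurospheres and was not called (0.70). Another Tubb3 probe set was called lower (-1.48), a call lost under 17 of 25 alternatives. Without Tubb3 the other 9 summed to 3952.5 in neurospheres, against 2280.0 to 2814.4 in R1 cells. For 6 astrocyte markers the summed signal was 7283.4 in neurospheres, within the 4051.4 to 7788.2 of R1 cells, with 1 of 5 tested higher (Aldoc, 4.34) and 1 lower (Gja1, -1.39). That position rests on Aldoc: without it the other 5 summed to 3004.5 in neurospheres, below the 3452.3 to 7699.7 of R1 cells. The summed signal of 5 oligodendrocyte markers was 2410.9 in neurospheres, against 718.7 to 1541.2 in R1 cells. Of 3 tested, 1 was higher (Sox10, 1.16, a call lost under 20 of 25 alternatives), and Mog and Cnp were below the median in neurospheres. Probe sets of Pdgfra, named after its values were seen, disagreed, and the one counted (0.96) was not called. Another had 1394.3 units in neurospheres against 52.9 to 160.9 on the R1 arrays (3.24, a call lost under 2 of 25 alternatives). It reached the array median in neurospheres alone. The remaining one had 23.2 units in neurospheres against 12.5 to 69.6. For 5 microglia markers the sum of 1595.7 in neurospheres lay within the 1466.1 to 1905.6 of R1 cells. Of 2 tested, 1 was higher (Csf1r, a call lost under 22 of 25 alternatives) and 1 lower (Cd68). Without Csf1r the other 4 summed to 384.7 in neurospheres, below the 918.8 to 1104.6 of R1 cells. For 5 endothelial markers the sum was 686.5 in neurospheres, against 1718.7 to 1888.2 in R1 cells (0 higher and 1 lower of 3 tested). For 5 fibroblast markers the sum of 2717.7 in neurospheres lay within the 1589.4 to 4253.0 of R1 cells (0 of 3 called). Between embryoid bodies and adherent cells 1 fibroblast marker, Col1a2, was called higher in embryoid bodies (1.50), a call that the unfiltered fit did not make. The 3 epiblast markers with a probe set summed to 2406.9 in neurospheres, against 504.3 to 752.7 in R1 cells (Sox3 alone called, of 2 tested), and 6 primitive endoderm markers to 1477.8 in neurospheres, against 577.6 to 813.6 (0 of 2 called). No marker of these lists is listed at 0, and their part in the Zic1 and Meis2 differences was not tested.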

How the data were processed

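Total RNA (RNeasy) was labelled with biotin and hybridised to 4 MG_U74Av2 arrays, per the labels' protocols. The deposited table holds linear signal intensity, 1 value per probe set and array, which the authors made with MAS5, per the submitters' processing notes; its version and scaling target are not given in the sources used. Of 12488 probe sets, 66 AFFX controls were left out; the platform annotation pairs 10833 with 1 gene, 396 with several and 1193 with none, and the 6 members' symbols were the same in RefSeq. Arrays were scaled to one trimmed mean of 500 (2% left out at each end), 32 was added and log2 taken. limma 3.58.1 (R 4.3.3; lmFit, eBayes with an intensity trend) was fitted per probe set, with 3 groups, two-sided p-values and Benjamini-Hochberg adjustment. The code was tested on simulated data.

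The members and lists were chosen with earlier results of these data known. The genes to name were every member and the 2 genes nearest to each member that reached the median in neurospheres. Of each list they were the called genes, at most 4 by size, or else the 2 of highest mean. For the pluripotency, endothelial, fibroblast and primitive endoderm markers, genes picked by this rule were counted above but not all were named. Alternatives changed the filter, pseudocount, scaling, trend, grouping, probe sets per gene and arrays used. Fits joining the unfiltered set with another choice, and the block for the deposited scale, were added after seeing the data. The number of arrays limits the precision.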

Additional observations from a re-analysis of the deposited data

How the results depend on the processing

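The count of factors called higher in neurospheres, 1 with the filter, was 2 with no filter, 0 with no intensity trend and 0 with the deposited scale as a block. Among unfiltered fits it was 2 with 100 added, with arrays scaled to one median or with the R1 arrays pooled, and 0 with 1 added, with quantile normalization, with no intensity trend or without adherent cells. The count called lower was 0 under each alternative run. Leaving out each R1 array gave Zic1 differences of 3.06 to 3.94 with the filter. The count below the median in neurospheres, 5, was also 5 after quantile normalization, and 3 at the 25th percentile. Requiring the median on 2 arrays left no factor to test. Over all probe sets, scaling arrays to one median moved the median difference to -0.13 for neurospheres and -0.24 for embryoid bodies, against 0.10 in both. It turned the split of higher and lower calls in neurospheres to 543 and 1367, against 650 and 935, and in embryoid bodies to 40 and 390, against 21 and 7. With no intensity trend 218 were higher and 237 lower in neurospheres. The cause of these shifts was not tested. Embryoid bodies without 1 array leave no residual degree of freedom, so values alone were computed. No paired analysis was possible because neurospheres and adherent cells have 1 array each.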
